A study of Arabidopsis thaliana with 16 samples.

Results

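Transcripts that changed between 1 h and 6 h of light were measured in the cotyledon blade of seedlings that had germinated and grown in darkness. The comparison sets 2 arrays of cotyledons after 6 h of white light against 2 arrays of cotyledons after 1 h, which are 4 of the 16 arrays of the series. All seedlings were Arabidopsis thaliana of the Landsberg erecta background, grown on medium without sucrose. Seeds were kept cold and given 30 min of white light at 100 µmol m-2 s-1 so that they would germinate, and seedlings then stood 3 days in the dark at 21 °C. After the light treatment the seedlings were put in RNAlater and the cotyledon blade was cut out, without its petiole and tip. Each sample pooled about 1500 to over 4000 seedlings from several plates and experiments. Cotyledons kept in the dark (2 arrays) and the shoot apex at the same light times (2 arrays each at 1 h and at 6 h) served to place the changes. The series asks how photoreceptors act on the shoot meristem and on leaf initiation, and this contrast asks what is added or lost in the cotyledon after the first hour.

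A cotyledon in darkness lives on seed reserves. Oil and protein are broken down to sugars and organic acids, amino acid carbon can feed the respiratory chain, and transcripts of sugar starvation are high. Light starts greening, cell expansion and, later, photosynthesis, and the making of new cytosolic ribosomes is a large cost of growth. Phytochromes and cryptochromes are known to act on transcription within the first hour of light.

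RNA was hybridised to Affymetrix ATH1 arrays, and values are MAS5 signals in arbitrary units. A probe set was called changed at an adjusted p under 0.05 in limma. The array's 35th percentile, between 12.4 and 17.2 signal units on these 4 arrays, served as the floor of detection, and the difference from a group that lay wholly at or below it is given as "at least". Replicates correlated at 0.913 in both groups. The 3' to 5' ratio of the GAPDH control probes overlapped between the groups, from 1.73 to 3.54. That of actin was higher at 6 h, with 12.0 and 14.2 against 9.98 and 7.86 at 1 h, and its part in the results was not tested. Among markers of blade tissue, STOMAGEN, YAB3 and SPCH lay above the floor on all 6 cotyledon arrays, and MUTE lay at or below it on 2. STOMAGEN, YAB3 and SPCH also lay above it on every apex array of the dark, 1 h and 6 h groups, so they do not set the blade apart. The meristem markers CLV3 and UFO lay at or below the floor on all 6 cotyledon arrays. Of the 6 apex arrays of the same groups, UFO lay at or below it on all 6 and CLV3 on 5. Their low signals therefore do not show that the cotyledon samples were free of meristem. In the cotyledon, LAS stood at 48.6 and 30.2 in the dark, at 19.9 and 6.83 at 1 h and at 19.4 and 20.4 at 6 h. EXPA7, a root hair marker, and BAN, a seed coat marker, were at or below the floor on 5 of the 6 cotyledon arrays. Fewer cells of a type and less RNA per cell cannot be told apart in such bulk tissue. The labels do not say that replicates came from separate cultures, so the spread behind the p-values may be technical. For each probe set, limma estimated that spread over all 6 replicated groups, apex groups included. It then drew the estimate towards that of probe sets of like signal. The SE of a gene can therefore be smaller than the spread of its own 1 h or 6 h arrays.

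Of 18237 probe sets tested, 1893 (10.4%) were called between 1 h and 6 h. Of these, 951 (5.21% of those tested) were higher at 6 h and 942 (5.17%) were lower. The median size of a called change was 1.52 on the log2 scale, and 858 of the rises and 829 of the falls were at least 2-fold. The groups did not overlap for any called probe set, which adds no separate evidence to the calls. The share without overlap among all tested probe sets was not counted. By comparison, 399 probe sets (2.19%) were called between dark and 1 h and 2829 (15.5%) between dark and 6 h, comparisons that share arrays with this one. The median change over all tested probe sets was 0.07, and centring each array on its median shifted all changes by -0.17, which gave 588 rises and 1141 falls (34.0% rises against 50.2%). The number called also depended on single arrays. It was 697 without 1 h replicate 1, 1654 without 1 h replicate 2, 1026 without 6 h replicate 1 and 823 without 6 h replicate 2. Counts with 1 array left out are given below in that order, and in such a fit the lone array of its group is assumed to vary like the other groups. Only 923 of the called probe sets matched 1 gene in the annotation, and 930 had no gene name, so the genes below are a part of what changed.

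**Figure D1:**
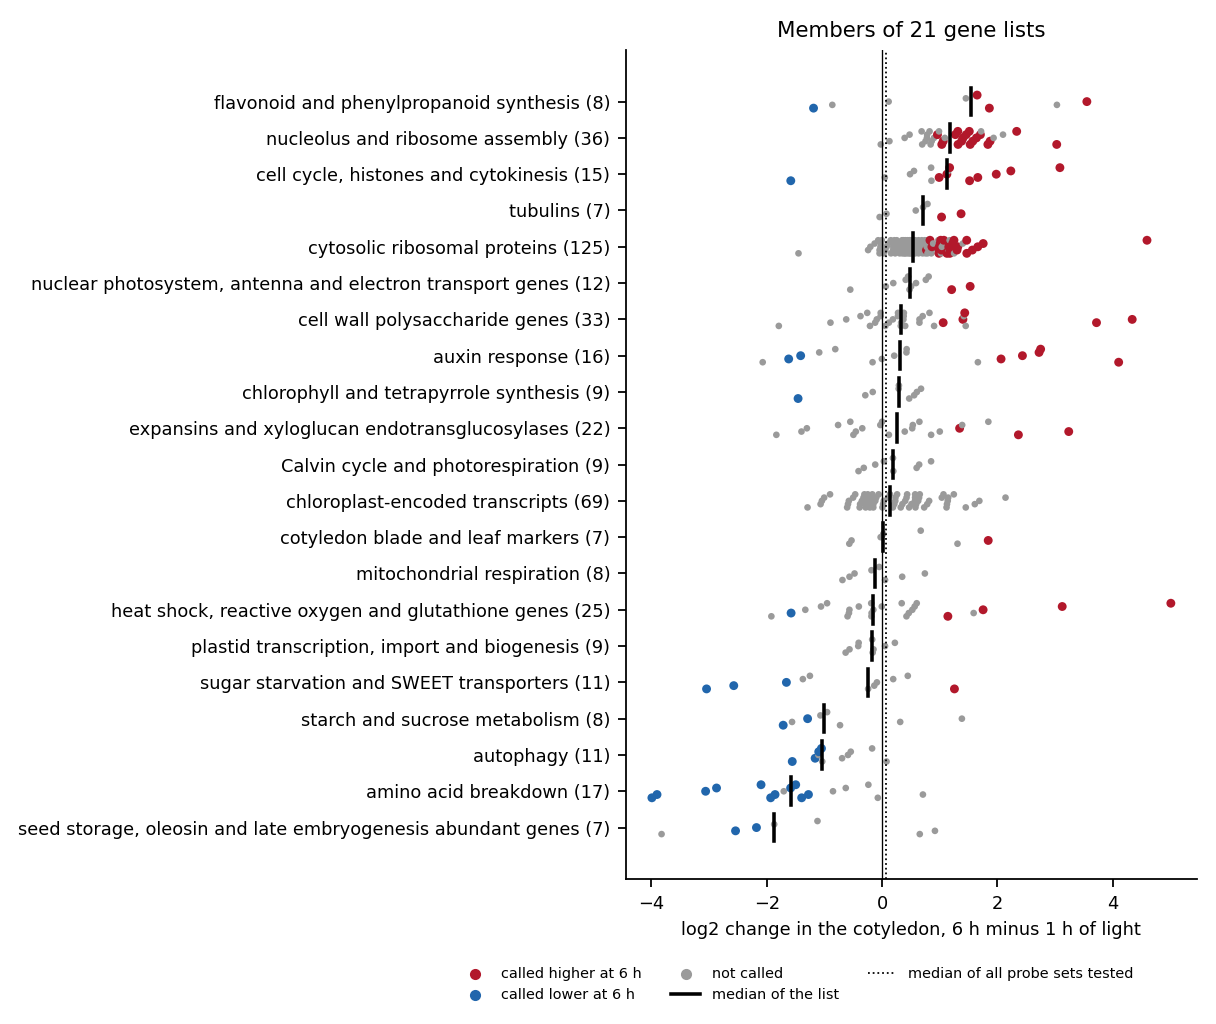
Change of each measured member of 21 gene lists, as the log2 of the 6 h signal minus that at 1 h in the cotyledon (x axis), with the number of measured members in brackets. Red and blue points were called higher or lower, grey points were not called, black bars are list medians and the dotted line is the median of all tested probe sets (0.07); the amino acid breakdown genes lie to the left, the ribosome assembly genes to the right.

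Many genes on the list of amino acid breakdown fell. Of 17 measured members, 11 fell (against 5.17% of all tested probe sets) and 0 rose, with a median change of -1.59 (-1.49 with dim signals raised to the floor). The list holds PPDK, which is not itself a breakdown enzyme, and without it 10 of 16 fell with a median of -1.54, a count added after the data were seen. Leaving out 1 array at a time gave 7, 11, 9 and 9 falls. MCCA, the biotin-carrying subunit of the carboxylase that breaks down leucine, gave 673 and 345 at 1 h and 31.7 and 29.0 at 6 h. Its log2 change was -3.99 (SE 0.30, adjusted p = 1.03e-05), a 15.9-fold fall. MCCB, the other subunit of that enzyme, gave 902 and 728 at 1 h and 247 and 203 at 6 h. It fell less, by 1.86 on the log2 scale (SE 0.35, adjusted p = 0.00455), and lost the call without 1 h replicate 1 or without 6 h replicate 2.

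IVD, the isovaleryl-CoA dehydrogenase one step before that carboxylase, gave 407 and 250.2 at 1 h and 49.3 and 38.6 at 6 h (log2 change -2.87, SE 0.32, adjusted p = 0.000137). The electron transfer flavoprotein carries electrons from this dehydrogenase towards the respiratory chain. Its subunit ETFBETA gave 212 and 137 at 1 h and 56.7 and 35.2 at 6 h (log2 change -1.93, SE 0.34, adjusted p = 0.00262). The partner subunit ETFALPHA fell with an adjusted p of 0.0163, and ETFQO, which passes the electrons on to ubiquinone, with 0.0422. AT2G26800, the lyase that ends the leucine branch, was not called, with 155 and 137 at 1 h and 153 and 126 at 6 h (adjusted p = 0.916). AT5G09300, a subunit of the dehydrogenase complex that opens the branch, was not called either (adjusted p = 0.325).

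Other amino acids were covered by fewer genes. ALDH6B2, methylmalonate-semialdehyde dehydrogenase of valine breakdown, gave 1049 and 982 at 1 h and 198 and 284 at 6 h (log2 change -2.10, SE 0.25, adjusted p = 0.000225). AT4G33150, the enzyme that starts lysine breakdown, gave 124 and 132 at 1 h and 45.9 and 39.5 at 6 h (adjusted p = 0.00418). ALDH7B4, an aldehyde dehydrogenase that responds to stress in this plant, gave 372 and 346 at 1 h and 47.0 and 39.5 at 6 h. It fell by 3.06 on the log2 scale (SE 0.22, adjusted p = 1.03e-05). DELTA-OAT, ornithine aminotransferase, fell by 1.39 on the log2 scale (adjusted p = 0.00984). PPDK, the dikinase that makes phosphoenolpyruvate from pyruvate, gave 403 and 272 at 1 h and 19.7 and 24.9 at 6 h (log2 change -3.90, SE 0.32, adjusted p = 2.34e-05). Of these, MCCA, IVD, ETFBETA, ALDH6B2, AT4G33150, ALDH7B4 and PPDK kept the call with each cotyledon array left out.

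None of the 11 was called in the first hour, when 2.19% of all tested probe sets were called. That comparison shares the 1 h arrays by which the 11 were called, so it does not date the start of the fall. From dark to 1 h, MCCA moved by 0.75 (adjusted p = 0.316) and PPDK by 0.52 (adjusted p = 0.585), and the median of the list was 0.23. MGL, methionine gamma-lyase, gave 54.3 and 34.2 at 1 h and 6.14 and 28.5 at 6 h, with 1 of the 6 h arrays at the floor, and was not called (adjusted p = 0.0832). In the apex, 4 of the 17 were called lower and 1 higher between 1 h and 6 h, with a median of -0.44. Of all tested probe sets, 3.15% were called lower there and 2.81% higher.

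**Figure D2:**
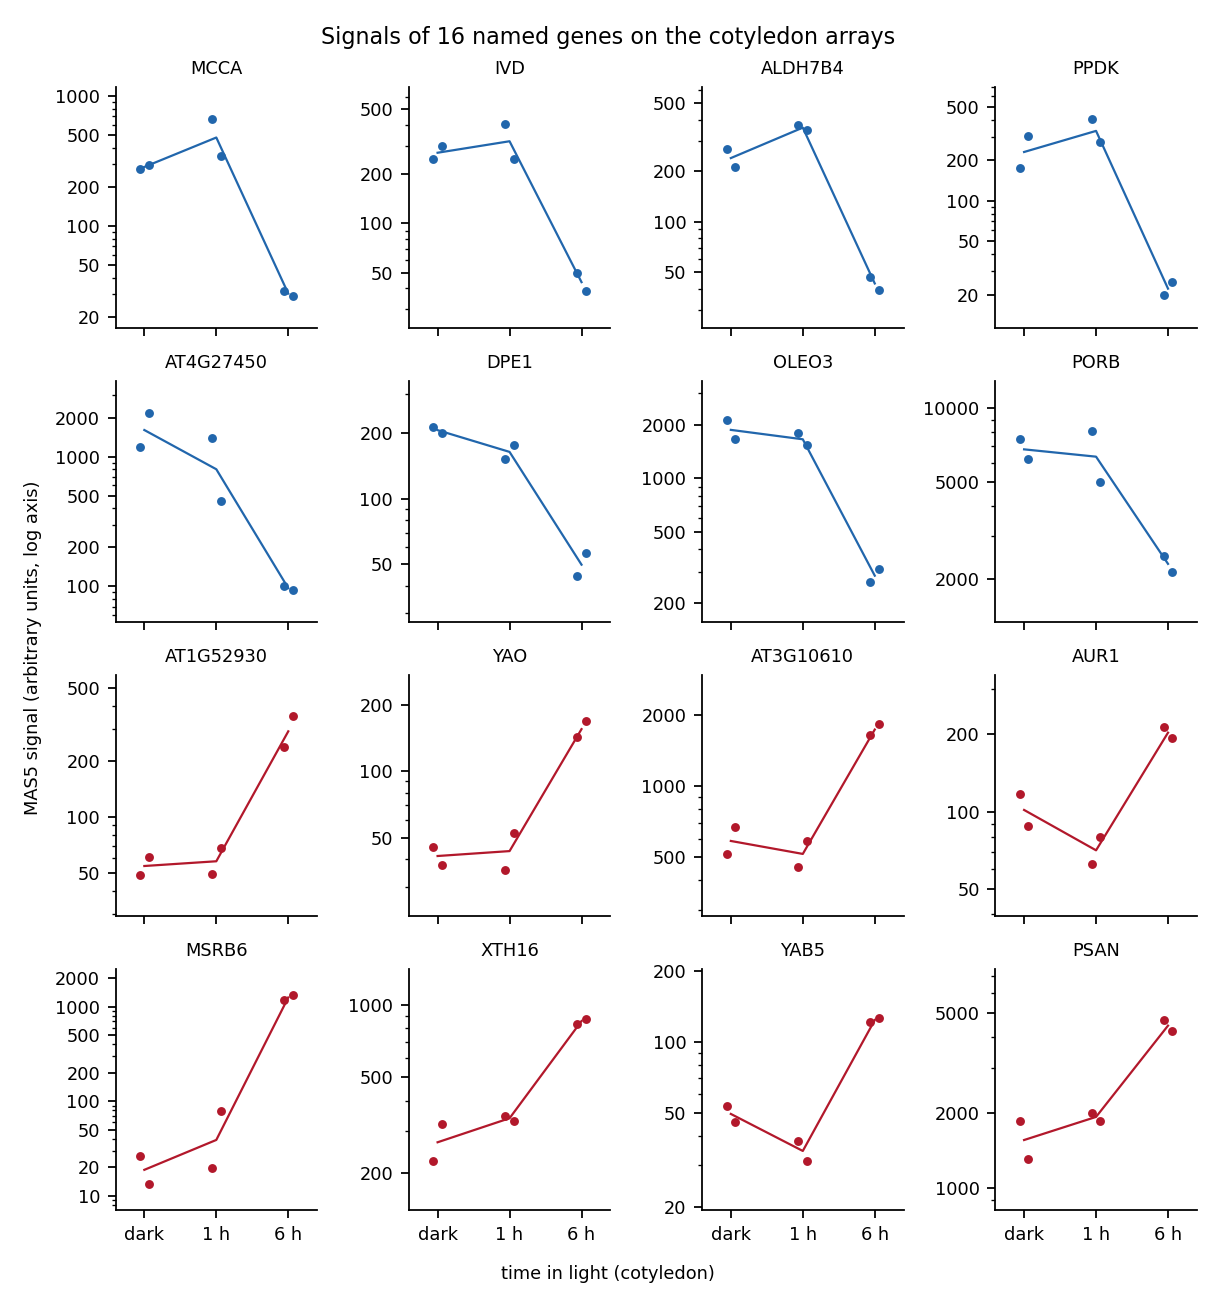
MAS5 signal (log axis) of 16 named genes in cotyledons at 3 times (dark, 1 h and 6 h of light), with 2 arrays each; points are arrays and lines join the means of the log2 signals. The 8 genes in blue were called lower at 6 h, MCCA from 345 or more to 31.7 or less, and the 8 in red were called higher, MSRB6 from 78.3 or less to 1186 or more.

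Some genes of starvation, starch breakdown and seed reserves fell as well, and their counts stand against 5.17% called lower of all tested probe sets. On the list of sugar starvation genes and SWEET transporters, 3 of 11 fell, 1 rose and 7 were not called, with a median of -0.24 (-0.09 with dim signals raised). There were 2, 4, 4 and 2 falls with an array left out. AT4G27450, an aluminium-induced-type protein that rises when plants starve, gave 1397 and 459 at 1 h and 101 and 93.5 at 6 h (log2 change -3.04, SE 0.47, adjusted p = 0.00131). AT1G56220, of the dormancy and auxin-associated family, gave 2480.0 and 798 at 1 h and 205 and 273 at 6 h (log2 change -2.57, SE 0.46, adjusted p = 0.00321). The 1 h replicates of both genes lay well apart, yet all 4 of them lay above the 6 h arrays, and both genes kept the call with each array left out. AKINBETA1, a regulatory subunit of the energy-sensing SnRK1 kinase, gave 427 and 181 at 1 h and 107 and 72.4 at 6 h (adjusted p = 0.016) and lost the call without 1 h replicate 1 or without 6 h replicate 2. AT3G15450, another starvation gene on the list, was not called (adjusted p = 0.955).

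Of 8 measured genes of starch and sucrose metabolism, 2 fell and 0 rose, with a median of -1.01 (-0.52 with dim signals raised). Each left-out array gave 2 falls. Both are enzymes of starch breakdown in the plastid. DPE1, the enzyme that rearranges malto-oligosaccharides, gave 152 and 177 at 1 h and 44.3 and 56.2 at 6 h (log2 change -1.71, SE 0.28, adjusted p = 0.00191). The phosphoglucan, water dikinase gene AT5G26570 (PWD), which phosphorylates starch before its breakdown, gave 674 and 591 at 1 h and 299 and 222 at 6 h (log2 change -1.29, SE 0.22, adjusted p = 0.00261). APL3, a subunit of the starch-building enzyme, was below the floor at 6 h and was not called (adjusted p = 0.0893).

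Lipid mobilisation genes had 3 of 4 measured members lower, with a median of -1.11. The count was 1, 1, 2 and 2 with an array left out. ICL, isocitrate lyase of the glyoxylate cycle, gave 10509.9 and 5078 at 1 h and 2187 and 2125 at 6 h (log2 change -1.76, SE 0.34, adjusted p = 0.00525), and lost the call without 1 h replicate 1. SDP1, the lipase that opens oil bodies, fell from 124 and 135 to 64.3 and 49.5 (adjusted p = 0.012). AIM1, of peroxisomal beta-oxidation, fell from 239.8 and 291 to 126 and 133 (adjusted p = 0.00889).

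Of 7 seed storage, oleosin and late embryogenesis genes, 2 fell, with a median of -1.87. That median was -0.08 with dim signals raised to the floor, because several members were dim. The count of falls was 1, 1, 3 and 2 with an array left out. OLEO3, a coat protein of oil bodies, gave 1794 and 1533 at 1 h and 261 and 311 at 6 h (log2 change -2.54, SE 0.44, adjusted p = 0.00262), and kept the call with each array left out. The other, the linker histone gene HIS1-3 that responds to drought, gave 15.2 and 13.7 at 1 h and 1.87 and 5.45 at 6 h. Those 6 h signals are below the floor, and with them raised to it the change was 0.02 in place of a fall.

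Autophagy genes fell in 4 of 11 cases (against 5.17% of all tested probe sets) and rose in 0, with a median of -1.04. With an array left out there were 0, 3, 2 and 0 falls, so none of these calls held without 1 h replicate 1 or without 6 h replicate 2. APG8H, which encodes a ubiquitin-like protein of the autophagosome membrane, gave 492 and 404 at 1 h and 173 and 133 at 6 h (log2 change -1.56, SE 0.32, adjusted p = 0.0069). APG8A and ATG8F, of the same family, changed by -1.16 (adjusted p = 0.0198) and -1.05 (adjusted p = 0.0414). ATG3, the enzyme that attaches these proteins to lipid, changed by -1.10 (adjusted p = 0.0193). The list's median from dark to 1 h was -0.61, and its median in the apex from 1 h to 6 h was 0.09. In the apex, limma called 0 of 11 (against 5.96% of all tested probe sets), and 1 had an unadjusted p under 0.05.

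Many genes that assemble ribosomes rose. Of 36 measured genes of the nucleolus and ribosome assembly, 18 rose (against 5.21% of all tested probe sets) and 0 fell. Their median change was 1.18 (1.07 with dim signals raised), 35 of the 36 estimates were positive, and the summed signal of the list went from 3008 and 3043 at 1 h to at least 6463 at 6 h. Leaving out 1 array gave 7, 15, 8 and 7 rises, and centring on the median gave 11. AT1G52930, a Brix-domain protein, gave 49.1 and 67.7 at 1 h and 239 and 353 at 6 h (log2 change 2.33, SE 0.32, adjusted p = 0.000574). YAO, a WD40 protein of the U3 small nucleolar particle, gave 35.8 and 52.8 at 1 h and 143 and 168 at 6 h (log2 change 1.83, SE 0.30, adjusted p = 0.00202).

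Other members cover successive stages of the assembly line. AT3G22660, an EBP2-like protein, gave 6.74 and 27.5 at 1 h, the first of them below the floor, and 105 and 118 at 6 h (log2 change 3.03, or 2.59 with the dim signal raised, adjusted p = 0.00312). AT5G08180, related to a protein of the H/ACA particle that modifies ribosomal RNA, gave 115 and 155 at 1 h and 346 and 318 at 6 h (adjusted p = 0.00317). AT3G06530, related to the yeast processome protein UTP10, gave 71.6 and 64.7 at 1 h and 197 and 250.2 at 6 h (adjusted p = 0.00345). These 5 genes kept the call with each array left out. AT2G40360, related to yeast BOP1 of the large subunit pathway, rose by 1.38 (adjusted p = 0.00378) and lost the call without 1 h replicate 1. The large subunits of RNA polymerase I, which transcribes ribosomal RNA, also rose, NRPA1 by 1.87 (adjusted p = 0.0127) and NRPA2 by 1.32 (adjusted p = 0.00781). NRPC2, a subunit of RNA polymerase III, changed by 0.13 (adjusted p = 0.903).

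The list's median from dark to 1 h was -0.19. For YAO, dark signals of 45.3 and 37.7 overlapped those at 1 h, and for AT1G52930 dark signals of 48.3 and 61.1 did too. In the apex, 2 of the 36 were called higher between 1 h and 6 h (against 2.81% of all tested probe sets) and 0 lower, with a median of 0.31.

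Cytosolic ribosomal protein genes rose by less. Of 125 measured, 26 rose (against 5.21% of all tested probe sets) and 0 fell. Their median change was 0.54, and 115 of the 125 estimates were positive. Quantile normalization gave 21 rises and median centring 12, with medians of 0.36 and 0.37. With an array left out there were 2, 19, 11 and 5. The summed signal was 188500 and 217268 on the 1 h arrays and from 281908 to 291765 on those at 6 h. Many of these genes have near-identical copies, so a probe set can take signal from a paralog.

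AT3G10610, a small subunit S17 gene, gave 454 and 589 at 1 h and 1646 and 1845 at 6 h (log2 change 1.75, SE 0.29, adjusted p = 0.0018). AT5G22440, a large subunit L10a gene, gave 655 and 591 at 1 h and 1445 and 1463 at 6 h (log2 change 1.22, SE 0.23, adjusted p = 0.00478). Both kept the call with each array left out, and both were called higher in the apex (adjusted p = 0.0252 and 0.0167). AT4G30800 (S11), AT3G06680 (L29), AT2G20450 (L14) and AT1G15250 (L37) rose by between 1.12 and 1.66 and each lost the call without 1 h replicate 1. AT4G30800 and AT1G15250 also lost it without 6 h replicate 2, and AT3G06680 and AT2G20450 without 6 h replicate 1. AT5G59240, an S8 gene, gave 21.1 and 24.9 in the dark and 0.518 and 11.0 at 1 h, a difference that was not called (adjusted p = 0.193). At 6 h it gave 46.2 and 71.4, at least 4.59-fold higher at 6 h than at 1 h (adjusted p = 0.0163).

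Most cell division genes that were called rose. Of 15 measured genes of the cell cycle, histones and cytokinesis, 8 rose and 1 fell (against 5.21% and 5.17% of all tested probe sets). Their median was 1.12, and 14 estimates were positive. With an array left out there were 2, 4, 4 and 2 rises. AUR1, an Aurora kinase of the mitotic spindle, gave 62.8 and 79.9 at 1 h and 213 and 193 at 6 h (log2 change 1.52, SE 0.25, adjusted p = 0.00193). Its dark signals of 118 and 87.8 lay between those groups, and it kept the call with each array left out. AUR2, its close relative, gave 31.9 and 33.1 at 1 h and 102 and 162 at 6 h (adjusted p = 0.00759).

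BUB3.1, of the spindle checkpoint, gave 22.3 and 41.7 at 1 h and 167 and 122 at 6 h (log2 change 2.23, SE 0.42, adjusted p = 0.00426). BUBR1, also of the checkpoint, was at or below the floor at 1 h and at 25.4 and 50.2 at 6 h, at least 2.85-fold higher (adjusted p = 0.0351). HTR12, the histone H3 of the centromere, gave 18.1 or less at 1 h and 57.5 and 56.4 at 6 h (adjusted p = 0.0262). The H2B genes HTB4, HTB11 and HTB1 rose by 0.99 (adjusted p = 0.00927), 1.17 (adjusted p = 0.0204) and 1.12 (adjusted p = 0.0329). The gene that fell was SIM, an inhibitor of cyclin-dependent kinases that favours endoreduplication. It gave 102 and 81.3 at 1 h and 30.1 and 30.6 at 6 h (log2 change -1.58, SE 0.32, adjusted p = 0.00672) and was called lower in the apex too (-1.72, adjusted p = 0.00664). Except for AUR1, each of these lost the call without at least 1 array, and BUB3.1 and SIM lost it only without 1 h replicate 1.

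Some genes of the cell wall and cytoskeleton rose, and their counts stand against 5.21% called higher of all tested probe sets. Of 33 measured genes of wall polysaccharides, 5 rose and 0 fell, with a median of 0.33 and 2, 4, 2 and 2 rises with an array left out. TBL45, of the family that acetylates wall polysaccharides, gave 17.8 and 2.57 at 1 h, with 1 array below the floor, and 158 and 118 at 6 h (adjusted p = 0.00105). TBL15 of the same family was at or below the floor at 1 h and at 59.8 and 57.4 at 6 h, at least 4.68-fold higher (adjusted p = 0.0256). TBL25 rose by 1.06 (adjusted p = 0.0089), the mannan synthase gene CSLA03 by 1.43 (adjusted p = 0.0162) and the pectin methylesterase gene ATPMEPCRB rose with an adjusted p of 0.025. TBL45 alone among these 5 kept the call with each array left out.

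Of 22 expansins and xyloglucan endotransglucosylases, which loosen and rejoin the wall, 3 rose and 0 fell, with a median of 0.26 and 2, 3, 2 and 1 rises with an array left out. XTH16 gave 346 and 329 at 1 h and 836 and 877 at 6 h (log2 change 1.34, SE 0.22, adjusted p = 0.0021), and kept the call with each array left out. EXPA8 was at or below the floor at 1 h, with 10.0 and 8.39, and at 76.3 and 97.6 at 6 h, at least 6.89-fold higher (adjusted p = 0.00728). EXPB3 gave 12.3 and 29.1 at 1 h and 78.4 and 121 at 6 h (adjusted p = 0.0281). Of 7 tubulins, 2 rose, with a median of 0.71 and 2, 1, 1 and 0 rises with an array left out. TUB5 gave 203 and 314 at 1 h and 574 and 739 at 6 h (adjusted p = 0.00472). TUB7 rose in both intervals, from 120.3 and 120.0 in the dark to 339 and 243 at 1 h and to 599 and 573 at 6 h (adjusted p = 0.0113). The later call of TUB7 was lost without 1 h replicate 2 or without either 6 h array. That of TUB5 was lost without 1 h replicate 1 or without 6 h replicate 2. The tubulin rises counted with an array left out are therefore not always these genes.

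Auxin genes and genes that respond early to light were followed through both intervals. Of 16 measured auxin genes, 2 were called lower and 0 higher between dark and 1 h, when 2.19% of all tested probe sets were called. Between 1 h and 6 h, 5 rose and 2 fell (against 5.21% and 5.17%), with a median of 0.32 (0.24 with dim signals raised). Leaving out 1 array gave 4 rises each time and 0, 2, 1 and 0 falls. HAT2, an auxin-induced homeodomain gene that also responds to shade, gave 257 and 163 in the dark, 26.3 and 12.2 at 1 h and 73.6 and 76.1 at 6 h. It fell by 3.51 on the log2 scale in the first hour (adjusted p = 5.37e-05) and rose by 2.06 after it (SE 0.36, adjusted p = 0.00253). At 6 h it was still called below the dark level (adjusted p = 0.0129).

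GH3.3, an enzyme that conjugates auxin to amino acids, gave 36.3 and 41.8 in the dark, 0.683 and 4.84 at 1 h and 32.9 and 29.6 at 6 h. It was at least 2.49-fold higher at 6 h than at 1 h (adjusted p = 0.00217), and at 6 h it was not called apart from the dark (adjusted p = 0.833). AT3G53250, a small auxin-up RNA gene, gave 6.14 and 4.50 at 1 h and 39.3 and 31.7 at 6 h, at least 2.82-fold higher (adjusted p = 0.00189). IAA34, a member of the Aux/IAA repressor family, was at least 1.75-fold higher (adjusted p = 0.00395). YUC4, of auxin synthesis, was called with 1 of its 6 h signals (10.7 and 12.8) still at the floor, and each left-out array ended that call. The falls were IAA20, from 228 and 159 to 66.2 and 58.0 (adjusted p = 0.0107), and WES1, another auxin-conjugating enzyme, from 118 and 55.4 to 34.0 and 27.1 (adjusted p = 0.0202).

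EXO, a growth gene that responds to brassinosteroid, was the riser on the sugar list. It gave 2703 and 2785 in the dark, 755 and 371 at 1 h and 1123 and 1419.9 at 6 h (adjusted p = 0.0229 for the rise), and lost the call without 1 h replicate 2 or without either 6 h array. GI, a clock gene that also acts in flowering, ran the opposite way. It gave 151 and 117 in the dark, 706 and 769 at 1 h and 236 and 203 at 6 h (log2 change after 1 h -1.75, SE 0.23, adjusted p = 0.000399). At 6 h it was not called apart from the dark (adjusted p = 0.0517). The light signalling gene HYH, a relative of HY5, gave 165 and 267 at 1 h and 199 and 266 at 6 h, a change that was not called (adjusted p = 0.882). The sugar transporter gene SWEET2 gave 227 and 259 at 1 h and 257 and 424 at 6 h after 15.1 and 27.8 in the dark (adjusted p = 0.73 for the later change). RR16, a type-A cytokinin response regulator, rose in both intervals, from 6.32 and 14.0 to 44.9 and 61.2 and then to 289.5 and 206 (adjusted p = 0.0246 for the later rise), and each left-out array ended the later call.

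**Figure D3:**
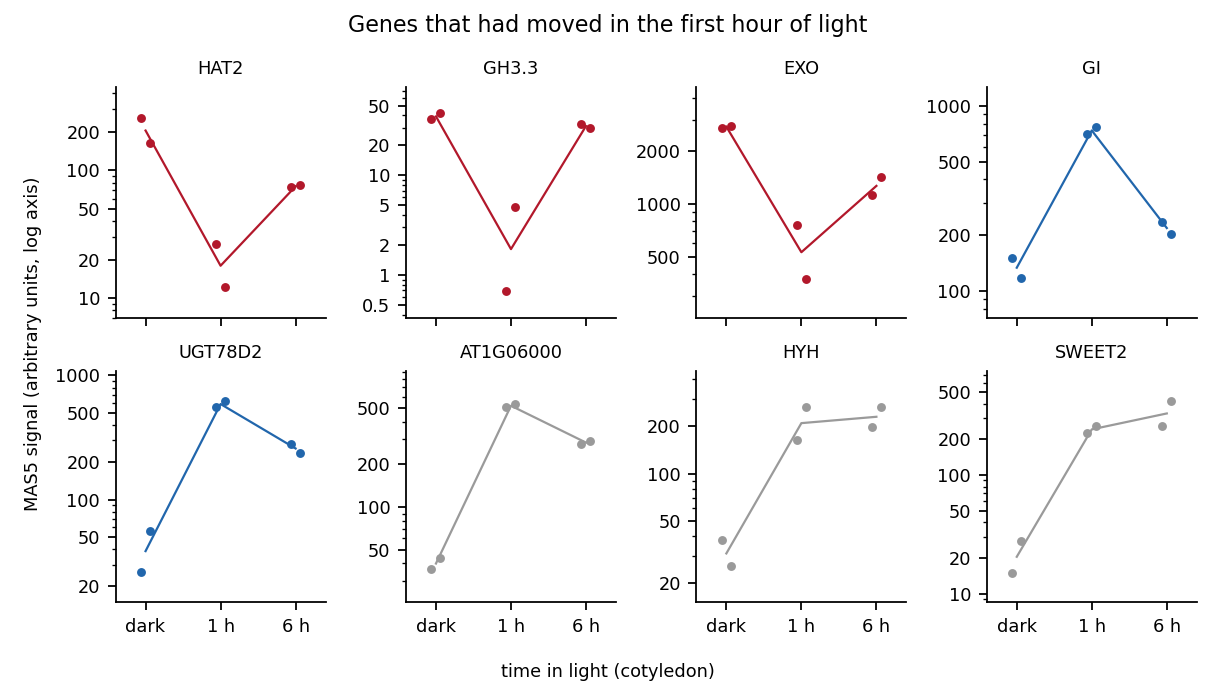
MAS5 signal (log axis) of 8 genes in cotyledons, 2 arrays each as points at 3 times (dark, 1 h and 6 h of light), with lines through the means of the log2 signals. Red genes were called higher and blue genes lower at 6 h than at 1 h, and grey genes were not called in that interval; HAT2, GH3.3 and EXO dip at 1 h and GI peaks there.

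Flavonoid genes moved in both directions. Of 8 measured, 3 rose and 1 fell (against 5.21% and 5.17% of all tested probe sets), with a median of 1.55 (0.88 with dim signals raised). The counts depended on the processing, since quantile normalization left 0 of 8 called and the left-out arrays gave 1, 1, 0 and 0 rises. UGT78D2, which adds glucose to flavonols and anthocyanins, gave 26.3 and 56.4 in the dark, 561 and 618 at 1 h and 282 and 237 at 6 h (log2 change after 1 h -1.19, adjusted p = 0.0432). AT1G06000, which adds rhamnose to flavonols, gave 506 and 531 at 1 h and 279 and 291 at 6 h (adjusted p = 0.0581). DFR, the first enzyme committed to anthocyanins, gave 18.2 and 6.93 at 1 h and 37.3 and 44.5 at 6 h (adjusted p = 0.0392). The anthocyanin glucosyltransferase gene AT4G14090 was at least 2.34-fold higher at 6 h (adjusted p = 0.0469), and CHIL, a chalcone isomerase-like protein, gave 48.7 and 140.4 at 1 h and 242 and 277 at 6 h (adjusted p = 0.0485).

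Of 12 nuclear photosystem, antenna and electron transport genes, 2 rose (against 5.21% of all tested probe sets) and 0 fell, with a median of 0.49, 11 positive estimates and 0 calls with any 1 array left out. PSAN, a photosystem I subunit, gave 1991 and 1856 at 1 h and 4656 and 4223 at 6 h (log2 change 1.21, SE 0.27, adjusted p = 0.011). LHCB4.3, an antenna protein, gave 335 and 448 at 1 h and 1166 and 1069 at 6 h (adjusted p = 0.0282). LHCB4.2 gave 2006 and 2158 at 1 h and 3961 and 3347 at 6 h and was not called (adjusted p = 0.0923). Of 9 chlorophyll synthesis genes, 1 fell (against 5.17% of all tested probe sets) and 0 rose. It was PORB, the light-dependent protochlorophyllide reductase that is abundant in the dark, with 8076 and 4986 at 1 h and 2493 and 2144 at 6 h (log2 change -1.46, SE 0.31, adjusted p = 0.0097). The call was lost without 1 h replicate 1 or without 6 h replicate 2, and PORB was called lower in the apex as well (-1.81, adjusted p = 0.0045).

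None of 69 probe sets of the chloroplast genome was called by limma, and 2 had an unadjusted p under 0.05. Their median change was 0.14 (-0.03 with median centring), from -1.29 to 2.14, and the median SE was 0.68. Even the change of 2.14 was not called, so the lack of calls does not show that these transcripts held steady. Calvin cycle and photorespiration genes gave 0 of 9 calls (2 at an unadjusted p under 0.05), mitochondrial respiration 0 of 8 (3) and plastid biogenesis 0 of 9 (1). On the list of nitrate and sulphate assimilation, SIR, sulphite reductase, was the 1 of 4 called, with a rise of 0.75 (adjusted p = 0.0425) that no left-out array let stand.

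On the list of heat shock, reactive oxygen and glutathione genes, 4 of 25 rose and 1 fell (against 5.21% and 5.17% of all tested probe sets). Its median was -0.15, which turned to 0.17 with a stricter filter on dim probe sets. The counts of rises were 3, 3, 2 and 1 with an array left out. Of the 5 called, 3 encode methionine sulphoxide reductases, which repair oxidised methionine. MSRB6 gave 26.6 and 13.4 in the dark, 19.5 and 78.3 at 1 h and 1186 and 1328 at 6 h. Its change of 5.01 (SE 0.69, adjusted p = 0.000536) kept the call with each array left out, and it was called in the apex too (4.36). Its relative MSRB9 rose from 52.7 and 30.2 to 134 and 134 (adjusted p = 0.0113), while MSRB3 fell from 131 and 93.7 to 35.7 and 38.5 (adjusted p = 0.012). ROXY2, a glutaredoxin of a family known from flower development, was at least 2.84-fold higher at 6 h (adjusted p = 0.00426). Hsp70-2 rose by 1.14 (adjusted p = 0.0358). Among 7 blade and leaf markers, YAB5, a gene of the lower leaf side, was the 1 called. It gave 38.1 and 31.2 at 1 h and 121 and 126 at 6 h (log2 change 1.84, SE 0.30, adjusted p = 0.00182), and its change in the apex was 1.84 as well.

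Several of the largest rises by the naming rule started below the floor. AT5G55450, a lipid-transfer family protein, gave 6.33 and 1.94 at 1 h and 214 and 221 at 6 h, at least 17.4-fold higher (adjusted p = 0.00216). AT4G28780, a GDSL-type lipase, was at least 13.6-fold higher, with 126 and 230.5 at 6 h (adjusted p = 0.0018). AT1G62520 was at least 4.41-fold higher (adjusted p = 0.00464). AT2G41090, a calmodulin-like protein, was at least 2.37-fold higher (adjusted p = 0.000187). All 4 kept the call with each array left out. UGT73C1, a glycosyltransferase, was at least 1.88-fold higher, and lost the call without 6 h replicate 2.

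AT3G22060, a secreted protein, and AT2G15020 were at least 3.99-fold and 2.17-fold higher, and each lost the call without several arrays. Of the largest rises with a measurable start on 1 or both arrays, AT5G11420, a wall protein of the DUF642 family, gave 4.19 and 32.4 at 1 h and 304 and 405 at 6 h (adjusted p = 0.000336). AT1G10640, a polygalacturonase-like protein, gave 7.00 and 24.0 at 1 h and 323 and 218 at 6 h (adjusted p = 0.00147). Both kept the call with each array left out. AT1G23205, an inhibitor-type wall protein, and AT4G18740 each had 1 h replicates on both sides of the floor, with 0.847 and 23.9 for the first and 0.618 and 22.0 for the other. Both lost the call without 1 h replicate 1 and without either 6 h array.

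Among the largest falls, AT2G34020 gave 420.4 and 333 at 1 h and 30.3 and 13.7 at 6 h (log2 change -4.20, SE 0.43, adjusted p = 8.22e-05). AT5G44440, a berberine bridge enzyme-like protein, gave 2470.0 and 1555 at 1 h and 137 and 194 at 6 h (log2 change -3.59, SE 0.34, adjusted p = 5.73e-05). AT2G32150, a hydrolase of the haloacid dehalogenase type, gave 327 and 91.8 at 1 h and was below the floor at 6 h, at least 11.8-fold lower (adjusted p = 0.000497). AT1G19530 was at least 7.09-fold lower, AT2G37670 at least 3.53-fold and AT5G57670 at least 3.27-fold. AT5G66650, of the mitochondrial calcium uniporter family, gave 331 and 199.6 in the dark, 113 and 95.1 at 1 h and 5.05 and 15.3 at 6 h (adjusted p = 0.000238 for the later fall). AT1G07040 gave 173 and 124 at 1 h and 4.38 and 16.6 at 6 h (adjusted p = 0.000318). All of these kept the call with each array left out.

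AT5G49640 was at least 1.34-fold lower and also kept the call with each array left out. Its 6 h signals of 1.55 and 1.00 lay below the floor, and with them raised to it the change was -0.42. The call was lost under 1 of the 15 alternatives (highest adjusted p = 0.526 in limma). AT3G16330 gave 2.01 and 2.77 in the dark, 59.5 and 34.1 at 1 h and 3.38 and 2.14 at 6 h. Its change from dark to 1 h was not called (adjusted p = 0.0798). It was at least 3.08-fold lower after the first hour (adjusted p = 0.0352), and each left-out array ended the call. AT1G72490 and AT5G23460 were at least 1.25-fold and 1.93-fold lower and each lost the call without 1 h replicate 1 and at least 1 other array. Nearest the threshold from inside were rises of AT5G02830 (adjusted p = 0.0499), AT2G40630 (0.0498), AT5G27770 (0.0496), AT1G75560 (0.0492) and AT3G52040 (0.0492). The falls nearest to it were AT4G14100 (adjusted p = 0.05 after rounding), LCD (0.0492), AT1G78890 (0.0491), AT5G02940 (0.0489) and the small heat shock gene AT2G29500 (0.0487).

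The apex contrast shares no array with the cotyledon contrast, and per the labels each seedling gave a single tissue, but the labels do not say whether both tissues came from the same experiments. In the apex, 1087 probe sets (5.96%) were called between 1 h and 6 h, 512 (2.81%) higher and 575 (3.15%) lower. Higher in both tissues were 266, which is 28.0% of the cotyledon rises and 52.0% of the apex rises. Lower in both were 280, or 29.7% of the cotyledon falls and 48.7% of the apex falls. Of the 951 cotyledon rises, 841 (88.4%) had a higher estimate in the apex, against 47.6% of all tested probe sets. Of the 942 falls, 868 (92.1%) had a lower one, against 52.4%. The median apex change was 0.83 for the cotyledon rises, whose own median was 1.58, and -0.78 for the falls, whose own median was -1.42; since the members were called in the cotyledon, its medians are raised by that choice. Across all tested probe sets the changes of the tissues correlated at 0.39 as a description over probe sets, which share arrays and are not replicates. Apex 6 h replicate 2 stood apart in its 3' to 5' ratios, at 5.40 for GAPDH and 30.4 for actin, and without it and apex dark replicate 2 the apex count was 665.

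**Figure D4:**
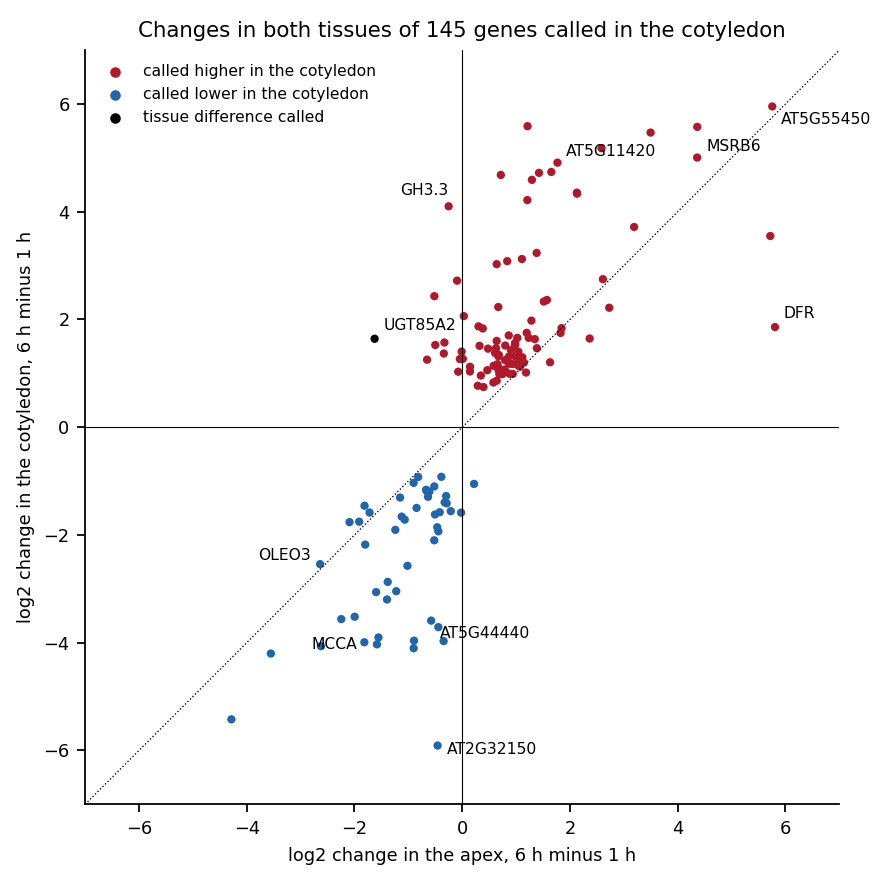
Fitted log2 change from 1 h to 6 h in the apex (x axis) and in the cotyledon (y axis) for 145 genes called in the cotyledon, those of the naming rule and all called members of the gene lists, with the line of equal change dotted; fitted values of genes below the floor at 1 time are not bounds. UGT85A2 (black), at 1.64 in the cotyledon and -1.63 in the apex, is the gene among them whose difference between tissues was called.

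The difference between tissues was called for 8 probe sets (0.0439%), of which 1 matched 1 gene. UGT85A2, a glycosyltransferase, gave 22.1 and 24.3 at 1 h and 72.0 and 72.5 at 6 h in the cotyledon, and 131 and 187 at 1 h and 60.4 and 42.8 at 6 h in the apex. It rose by 1.64 in the cotyledon (SE 0.34, adjusted p = 0.00718) and fell by 1.63 in the apex (adjusted p = 0.0119), a difference of 3.27 (SE 0.47, adjusted p = 0.0255). That call was lost under 10 of 17 alternatives, with adjusted p between 0.00375 and 0.24. An unadjusted p under 0.05 was reached by 1829 probe sets, and the median SE of the difference was 0.59, so for most genes a tissue difference could not be told from none. The median for amino acid breakdown was -1.59 in the cotyledon and -0.44 in the apex, but for MCCA the difference itself, -2.17, had an adjusted p of 0.113. For AT5G44440 it was -3.01 (adjusted p = 0.0502), and for DFR, which rose by 5.81 in the apex, -3.95 (adjusted p = 0.0958).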

How the data were processed

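The deposited files hold MAS5 signal intensity per probe set on a linear scale, made by the authors with GCOS and MAS5, per the submitters' processing notes (versions not given in the sources used here). Each deposited array had a trimmed mean near 100.01 (2% off each end). Signals were log2-transformed here without an offset. Of 22810 probe sets, 64 controls were left out, and 18237 of 22746 were tested because at least 2 of the 16 arrays gave a signal above that array's 35th percentile. Names came from the platform annotation, in which 13513 probe sets matched 1 gene, 503 several and 8730 none. Where probe sets shared a gene, the brightest by mean log2 signal was used.

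limma 3.58.1 (R 4.3.3) fitted 10 group means without a replicate block, with eBayes, an intensity trend, 6 residual and 7.618 prior degrees of freedom, and two-sided p-values adjusted by Benjamini-Hochberg over all tested probe sets. The number of arrays limits the precision (median SE 0.42). Named were the 14 largest rises and 14 largest falls among called probe sets of a single gene whose groups did not overlap, with 1 group wholly above the floor, up to 8 tissue differences each way, up to 6 called members per gene list, the 5 rises and 5 falls nearest the threshold, and uncalled list members with values only. AT4G33150, MCCB, DELTA-OAT, ETFALPHA, ETFQO, HTR12, HTB1, BUBR1, NRPA1, NRPA2 and YUC4 are further called list members, named beyond this rule after their values were seen. Members and lists were chosen with earlier results of these data known, and 9 of the 32 lists were added or extended after the annotation was seen. "At least" folds set the bright group's mean log2 signal against the dim arrays' 35th percentile or own signal, whichever was higher. Tried as alternatives were 2 other scalings, filters, an offset, raised dim values, no trend, fewer arrays, the replicate block and each array left out. Sequences were not used.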

Additional observations from a re-analysis of the deposited data

Results flagged for a closer look

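The change from 1 h to 6 h differed between cotyledon and apex, by the test of that difference, for UGT85A2, with a log2 difference of 3.27. It also differed for 7 probe sets that have no gene name in the annotation used and are not described further. No group had enough arrays for a test of single outlying samples.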

How the results depend on the processing

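The number of probe sets called between 1 h and 6 h in the cotyledon was 947 (471 higher, 476 lower) without the intensity trend, and with 1 array left out it ranged from 697 to 1654 (330 to 932 higher, 359 to 722 lower). Median centring gave 588 higher. The apex count was 320 without the trend, 665 without the arrays that stood apart and 271 to 1402 with 1 array left out. The tissue difference was called for 4 probe sets under median centring, 30 with an offset, 35 with dim values raised, 0 without the trend (1554 at an unadjusted p under 0.05), and 0 to 221 with 1 array left out (0 without apex 1 h replicate 2, with 1535 at an unadjusted p under 0.05; 221 without apex 6 h replicate 1). The cause was not tested. With the replicate number as a block, 1806 probe sets were called in the cotyledon and 13 for the tissue difference. Deviations of same-numbered arrays correlated between groups from -0.128 to 0.125, and at -0.0108 between cotyledon 1 h and 6 h. No pairing by number showed in these values, but a small shared effect could go unseen by this check. HIS1-3 changed from -2.18 to 0.017 with dim values raised. List medians turned sign for 7 lists, those of blade markers (0.02; -0.15 under median centring, -0.043 to 0.42 with an array left out), heat shock and redox genes (-0.15; 0.17 with a stricter filter, -0.23 to 0.22), nitrate and sulphate genes (0.29; -0.10 to 0.68), Calvin cycle and photorespiration genes (0.19; -0.0044 with quantile normalization, -0.067 to 0.41), chloroplast-encoded transcripts (0.14; -0.03 under median centring, -0.33 to 0.49), gibberellin, brassinosteroid and ethylene genes (0.13; -0.04 under median centring, -0.36 to 0.23) and jasmonate and wound genes (-0.18; 0.31 with a stricter filter, 0.23 with dim values raised, -0.52 to 0.47). Each range is with an array left out. Of 145 called genes that the naming rule or a list holds, 42 were called under all 15 alternatives and 44 with each cotyledon array left out.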
